A study of Homo sapiens with 4 samples.

Results

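The 10 genes described here handle iron and heme: FTH1, FTL and NCOA4 (storage and its turnover), TFRC, STEAP3 and SLC39A14 (uptake), SLC40A1 (export), HMOX1 (heme breakdown), and ACO1 and IREB2 (iron sensing). They were taken by symbol from a table of 60664 genes, and each symbol matched 1 gene. The cells were Hs578T, a long-established human line of triple-negative breast cancer with a mesenchymal character, and the assay was bulk RNA-seq. There were 2 libraries of Hs578T cells that overexpressed TFCP2L1, which encodes a DNA-binding protein related to grainyhead, and 2 of Hs578T cells of the empty group, which the deposited table calls FLAG. Vector, promoter, clone and selection are not labelled for either group. Nor do the labels name a culture for any library, so the p-values below rest on library-to-library spread alone, and that spread may be technical.

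Iron enters most cultured cells bound to transferrin through the receptor TFRC, is reduced in the endosome by STEAP3 and is stored in ferritin, a shell of heavy (FTH1) and light (FTL) chains. NCOA4 carries ferritin to the lysosome, where its iron is released, and HMOX1 frees iron from heme. The free ferrous iron that results feeds lipid peroxidation, which is why these genes are followed in studies of ferroptosis, named in the series title. When iron is scarce, the regulatory proteins made from ACO1 and IREB2 bind hairpins called iron-responsive elements. A hairpin before the coding sequence holds back translation of ferritin and ferroportin, and hairpins after it protect TFRC mRNA from decay.

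The hairpins are shown because they are the sites through which 2 of the 10 genes act on 4 of the others, and because mRNA levels measured here cannot show the translational arm. A pattern of C, any 5 bases, a loop of CAGTG and then A, C or T, and 5 bases able to pair with the first 5 (G with T allowed) was searched on the sense strand in 1 GENCODE 29 transcript per gene. It was found in FTH1, FTL, SLC40A1 and TFRC, and not in the transcripts of HMOX1, ACO1, IREB2, NCOA4, SLC39A14 or STEAP3. The pattern is strict and 1 transcript stands for each gene, so elements can be missed. No match was found in the transcripts of EPAS1, SLC11A2, CDC14A and CDC42BPA, which are listed among genes with such an element. Of 19666 protein-coding genes, 0.87% held the pattern anywhere in the transcript and 0.0814% in the first 250 bases. The matches are given with 5 bases on each side, read along the mRNA as T for U, with the 6 loop bases in capitals. Those of FTH1 (GRCh38 chr11:61967575-61967601, minus strand), FTL (chr19:48965336-48965362, plus strand) and SLC40A1 (chr2:189580662-189580688, minus strand) lie in the 5′ UTR.
FTH1: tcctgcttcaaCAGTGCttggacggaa
FTL: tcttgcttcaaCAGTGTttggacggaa
SLC40A1: aacttcagctaCAGTGTtagctaagtt

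The FTH1 and FTL stretches share 25 of 27 bases and differ by C3T and C17T, counted from the 5′ end with the FTH1 base first. The 4 TFRC matches lie in the 3′ UTR on the minus strand of chromosome 3, at chr3:196050980-196051006, chr3:196050576-196050602, chr3:196050511-196050537 and chr3:196050464-196050490. They are lettered A to D here in that order. These letters serve this text only and are not the published names of the TFRC elements.
TFRC site A: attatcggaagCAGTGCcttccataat
TFRC site B: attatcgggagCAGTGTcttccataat
TFRC site C: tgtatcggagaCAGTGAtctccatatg
TFRC site D: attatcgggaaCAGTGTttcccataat

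**Figure D1:**
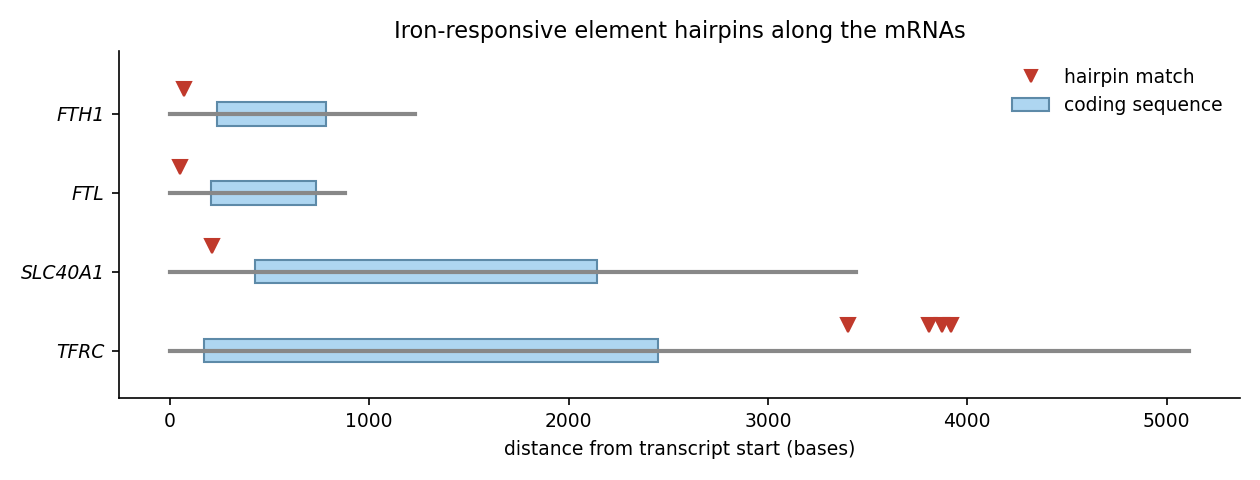
Positions of the hairpin matches (triangles) along 1 transcript each of FTH1, FTL, SLC40A1 and TFRC, with the coding sequence as a box; the horizontal axis is the distance from the transcript start in bases. FTH1, FTL and SLC40A1 have 1 match each before the coding sequence, and TFRC has 4 after it.

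The libraries held 23755664 and 26355502 estimated counts with TFCP2L1 and 23304022 and 18960674 in the empty group. TFCP2L1 itself had 4623 and 5069 counts in the overexpressing libraries, against 12 and 19 in the empty ones, so all 4 libraries went with their labels. Summed TPM (the deposited level per transcript length, scaled to library size) of 6 mesenchymal markers of the line were 7580 and 7423 with TFCP2L1 and 6945 and 7390 in the empty group, but they did not move together: VIM and CDH2 rose, FN1, SPARC and ZEB1 fell, and AXL did not pass the test. Those of CDH1, EPCAM, ESR1, PGR and ERBB3, expected to be low in it, summed to at most 2.05 in any library, with PGR at 0. Mitochondrially encoded genes took 4.001% and 4.011% of counts with TFCP2L1, against 3.68% and 3.60%. The labels name no batch, and one that fell along the groups cannot be told apart from them.

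With TFCP2L1, HMOX1 was 4.58-fold higher, FTH1 was 2.26-fold lower, and ACO1, TFRC, NCOA4, SLC39A14 and STEAP3 were lower by smaller factors of 1.69 to 1.27. FTL did not pass the test, and SLC40A1 had no count in any library. Of the 10 genes 9 passed the filter on low counts. Of these, 6 were called lower, where 23.9% of all 16544 tested genes were, and 2 higher, where 23.5% were (edgeR's quasi-likelihood test, Benjamini-Hochberg adjusted p under 0.05). In either direction 47.5% of all tested genes were called, so a call by itself is common in this comparison, and the sizes matter more. The median log2 fold change of the 9 was -0.36, beside -0.002 over all tested genes. In CPM (counts scaled to library size), 8 of the 9 had groups that did not overlap, as had 73.7% of all tested genes. RNA per gene was measured in bulk, so fewer cells expressing a gene and less RNA per cell cannot be told apart.

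**Figure D2:**
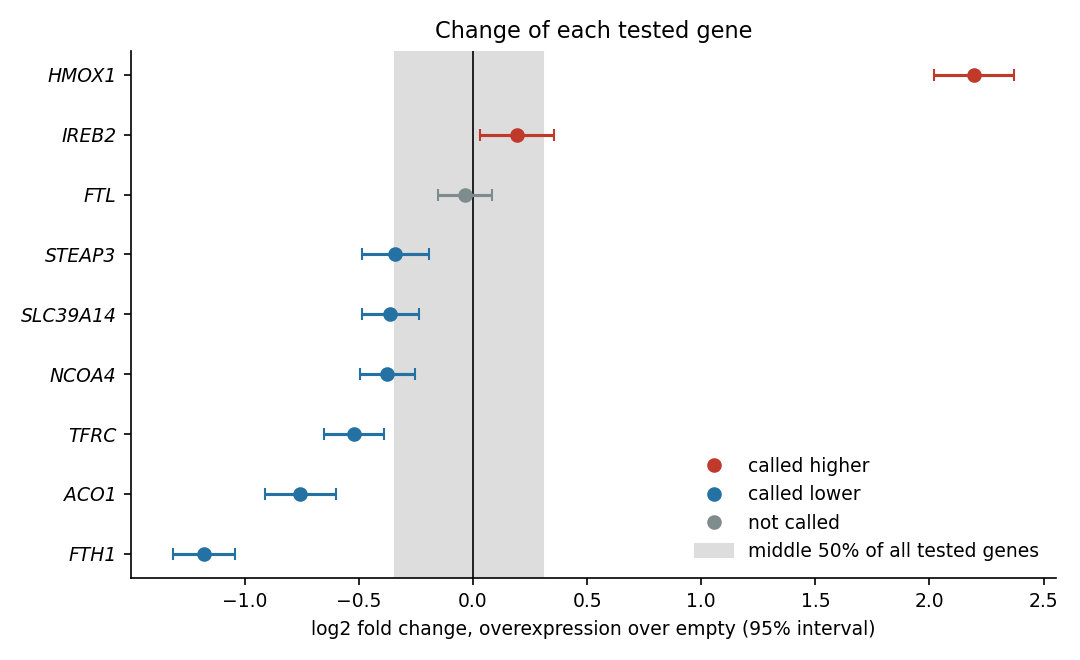
Log2 fold change, overexpression over empty, of the 9 tested genes with its 95% interval; the grey band holds the middle 50% of all tested genes. HMOX1 at 2.19 and FTH1 at -1.18 lie farthest from 0, and the interval of FTL spans 0.

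Ferritin heavy chain mRNA fell while light chain mRNA did not pass the test. FTH1 (ENSG00000167996; GRCh38 chromosome 11, 61959718 to 61967660, minus strand) encodes the chain that oxidises ferrous iron as it enters the shell. It measured 1759 and 1876 CPM in the overexpressing libraries, against 4347 and 3883 CPM in the empty ones. Both overexpressing libraries lay far below both empty libraries. The log2 fold change was -1.18 (SE 0.06, edgeR adjusted p = 2.26e-09), lower than that of all but 8.43% of tested genes. By TPM, FTH1 ranked 52nd and 46th among all genes in the overexpressing libraries, against 8th and 10th in the empty ones.

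FTL (ENSG00000087086; chromosome 19, 48965301 to 48966878, plus strand) encodes the light chain, which favours mineralisation of the iron core. It measured 1553 and 1667 CPM with TFCP2L1, against 1648 and 1654 CPM in the empty group, and the groups overlapped. Its log2 fold change was -0.04 with a 95% interval of -0.15 to 0.08 (edgeR adjusted p = 0.625). FTL stayed between the 30th and 34th place by TPM in the 4 libraries.

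Set against each other in the deposited TPM, the chains changed places. The ratio of FTH1 to FTL TPM was 0.797 and 0.860 in the overexpressing libraries, against 1.88 and 1.59 in the empty ones, and averaged 0.828 ± 0.045 against 1.73 ± 0.21 (SD, n = 2 each). The ratio lay under 1 in both overexpressing libraries and above 1 in both empty libraries. This place relative to 1 holds in the deposited TPM only. The ratio of counts was 1.13 and 1.12 with TFCP2L1, against 2.64 and 2.35. The deposited gene lengths, 825 for FTH1 and 871 for FTL, make FTH1 the shorter. Counts divided by those lengths therefore also keep the ratio above 1 in all 4 libraries. FTH1 and FTL together summed to 6031 and 6450 TPM with TFCP2L1, against 10226 and 9227 TPM in the empty group. With 2 libraries against 2 an exact permutation test cannot give a p below 0.33, so none was run on the ratio.

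FTH1 has many near-identical processed copies in the genome, and its estimated counts were not whole numbers. The 25 rows named as FTH1 pseudogenes held 20.1 and 11.2 counts in all with TFCP2L1 and 22.7 and 14.2 in the empty group, at most 0.048% of the FTH1 count, and FTH1P12 held the most. Of 16 FTL pseudogene rows, only FTLP3 had a value above 0. BEST1, whose exons overlap those of FTH1 on the opposite strand, had 43.6 and 66.1 counts with TFCP2L1 and 72.3 and 54.0 in the empty group. Whether reads were counted by strand is not stated.

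**Figure D3:**
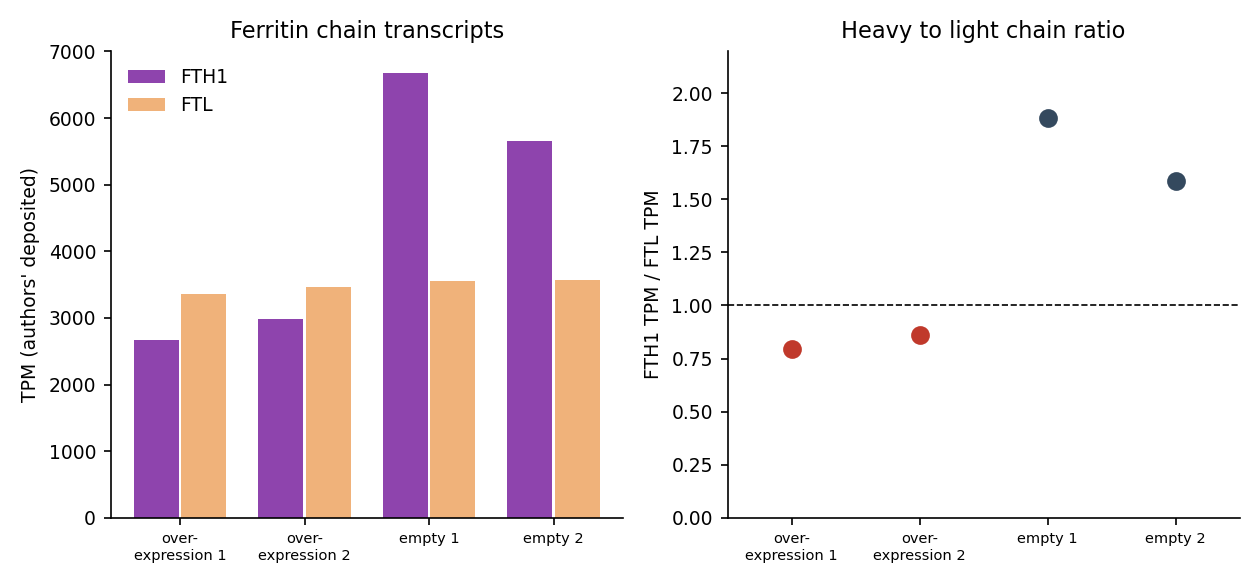
Left, the authors' deposited TPM of FTH1 and FTL in each library as bars; right, the ratio of FTH1 to FTL TPM in each library, with a dashed line at 1. FTL stands at 3357 to 3566 TPM in all 4 libraries, while FTH1 is at 2674 and 2983 TPM with TFCP2L1, against 6677 and 5660 TPM in the empty group.

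NCOA4 (ENSG00000266412; chromosome 10, 46005088 to 46030714, minus strand), the receptor that delivers ferritin to autophagosomes, was lower by a smaller step. It measured 163 and 160.4 CPM with TFCP2L1, against 211 and 208 CPM in the empty group. The groups stood apart, with a log2 fold change of -0.38 (SE 0.06, edgeR adjusted p = 8.24e-05).

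The uptake genes were lower together. TFRC (ENSG00000072274; chromosome 3, 196027183 to 196082189, minus strand), the transferrin receptor, measured 731 and 648 CPM in the overexpressing libraries, against 987 and 994 CPM in the empty ones. Its log2 fold change was -0.52 (95% interval -0.65 to -0.39, edgeR adjusted p = 8.07e-06). SLC39A14 (ENSG00000104635; chromosome 8, 22367249 to 22434129, plus strand), a carrier of zinc that also takes up iron not bound to transferrin, measured 242 and 228 CPM with TFCP2L1, against 310.5 and 294 CPM. In each of these genes both overexpressing libraries were below both empty ones. STEAP3 (ENSG00000115107; chromosome 2, 119223831 to 119265652, plus strand), the endosomal ferrireductase, measured 65.4 and 64.7 CPM with TFCP2L1, against 80.4 and 84.3 CPM. The log2 fold changes were -0.36 for SLC39A14 (SE 0.06, edgeR adjusted p = 0.000157) and -0.34 for STEAP3 (SE 0.07, edgeR adjusted p = 0.000929). For scale, 54.2% of all tested genes had a smaller change in size than SLC39A14 and 52.0% a smaller one than STEAP3. STEAP3-AS1, an antisense gene overlapping STEAP3, had at most 9.40 counts in any library.

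SLC40A1 (ENSG00000138449; chromosome 2, 189560579 to 189583758, minus strand) encodes ferroportin, the only known iron exporter of vertebrate cells. It had 0 counts in all 4 libraries. A count of 0 allows up to 0.126 and 0.114 CPM in the overexpressing libraries and 0.129 and 0.158 CPM in the empty ones (3 counts of each total, counting error only), and no fold change can be given.

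HMOX1 (ENSG00000100292; chromosome 22, 35380361 to 35394214, plus strand) encodes the inducible heme oxygenase, which opens the heme ring and releases iron, carbon monoxide and biliverdin. It measured 132 and 126 CPM in the overexpressing libraries, against 26.2 and 30.5 CPM in the empty ones, and every overexpressing value was more than 4 times every empty value. The log2 fold change was 2.19 (95% interval 2.02 to 2.37, edgeR adjusted p = 4.90e-11), higher than that of 98.8% of tested genes. By TPM, HMOX1 ranked 1088th and 1170th among all genes with TFCP2L1, against 4717th and 4194th in the empty group.

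Of the genes of the 2 iron regulatory proteins, ACO1 was lower, while a small rise of IREB2 depended on the processing. ACO1 (ENSG00000122729; chromosome 9, 32384603 to 32454769, plus strand) encodes iron regulatory protein 1, which works as an aconitase when it holds an iron-sulfur cluster and binds RNA when it does not. It measured 46.9 and 44.8 CPM with TFCP2L1, against 77.8 and 77.0 CPM in the empty group, a log2 fold change of -0.76 (SE 0.07, edgeR adjusted p = 9.65e-07). IREB2 (ENSG00000136381; chromosome 15, 78437431 to 78501456, plus strand) encodes iron regulatory protein 2, which is degraded when iron is plentiful. It measured 88.6 and 78.0 CPM with TFCP2L1, against 72.9 and 72.8 CPM, a log2 fold change of 0.19 (95% interval 0.03 to 0.35, edgeR adjusted p = 0.048). The IREB2 call held in 4 of 13 other settings, with adjusted p between 0.000833 and 0.488. It was lost on leaving out overexpression replicate 1 (adjusted p = 0.214), or either empty library (0.180 for replicate 1 and 0.174 for replicate 2), and its TPM, 23.1 and 17.3 against 19.2 and 16.6, overlapped.

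**Figure D4:**
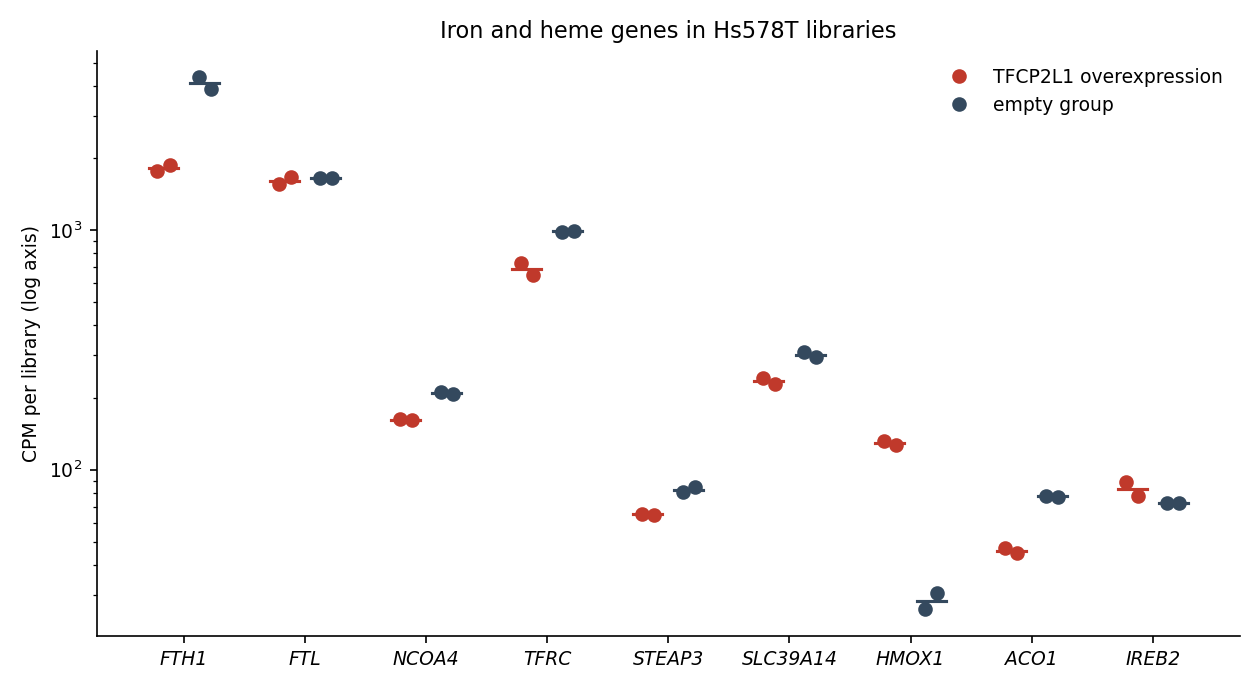
CPM of the 9 tested genes in each library on a log axis, overexpressing libraries at left and empty libraries at right of each gene; points are libraries and short lines group means. FTL overlaps between groups, HMOX1 is higher with TFCP2L1, and the other 6 genes are lower. IREB2 is slightly higher in CPM, though its TPM (not drawn) overlapped.

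Ordered by TPM, the genes ran FTL, FTH1, TFRC, HMOX1, SLC39A14, NCOA4, STEAP3, IREB2, ACO1 and SLC40A1 in the overexpressing libraries. In the empty group the order was FTH1, FTL, TFRC, SLC39A14, NCOA4, STEAP3, HMOX1, ACO1, IREB2 and SLC40A1. HMOX1 stood at 138 and 126 TPM in overexpressing libraries, above SLC39A14 at 78.8 and 69.9 TPM. In the empty libraries STEAP3, at 31.1 and 32.9 TPM, lay above ACO1, at 27.2 TPM in both. HMOX1, at 27.2 and 31.5 TPM there, was below STEAP3 within each library, though their ranges overlapped, and had no clear order against ACO1.

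HMOX1 stood at 2.21, FTH1 at -1.17 and ACO1 at -0.74 in the authors' deposited table (log2 fold changes), whose significance mark fell on these 3 of the 10 genes. The authors' deposited table gave IREB2 an adjusted p of 0.10. TFRC, at -0.51 and an adjusted p of 1.63e-15, carried no mark in the authors' deposited table.

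Beyond these genes, 115 others of iron and heme biology were examined in 9 lists, of which EPAS1 and SLC11A2 stand in 2 each. Of the 115, 100 were tested, of which 32 rose and 25 fell, where 23.5% of all tested genes rose and 23.9% fell. The median of the log2 fold changes of the 100 was 0.11, beside -0.002 over all tested genes. The lists below are described by counts and medians, without a test of the list, and each count is to be read beside those shares.

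Among other genes of uptake and iron reduction, 7 of 12 tested fell and 1 rose, and the median of the 12 log2 fold changes was -0.47. STEAP1, a relative of STEAP3, measured 10.3 and 9.68 CPM with TFCP2L1, against 18.6 and 17.8 CPM in the empty group. PRNP, the prion protein with reported ferrireductase activity, measured 230.0 and 228 CPM with TFCP2L1, against 321 and 328 CPM. CD44, a glycoprotein reported to carry iron-bound hyaluronan into cells, fell by 0.35 on the log2 scale (SE 0.05, edgeR adjusted p = 9.83e-05). FRRS1, a ferric reductase, was the gene that rose, at 20.8 and 20.9 CPM, against 12.1 and 11.1 CPM. SLC11A2, the endosomal iron carrier DMT1, did not pass the test, at 51.5 and 51.8 CPM with TFCP2L1, against 55.5 and 56.3 CPM. SLC39A8 and CYBRD1 did not pass either (edgeR adjusted p = 0.171 and 0.116). Of the 7 that fell, SLC22A17 had 8 counts in each overexpressing library, and TF had at most 1.67 CPM in any library. The count of genes that fell was 4 without empty replicate 2, 4 with DESeq2 and 4 for TPM with limma, where the median was -0.25.

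Of 11 genes of export and the hepcidin axis, 5 were tested. BMP2, a ligand that can induce hepcidin in liver, measured 1.30 and 1.33 CPM with TFCP2L1, against 10.7 and 9.82 CPM in the empty group, a log2 fold change of -2.96 (SE 0.20, edgeR adjusted p = 2.37e-08). HFE, the hemochromatosis protein that binds TFRC, measured 16.9 and 16.5 CPM with TFCP2L1, against 7.03 and 7.60 CPM (log2 fold change 1.19, SE 0.12, edgeR adjusted p = 2.26e-06). NEO1, a co-receptor of the hepcidin pathway, measured 6.996 and 6.02 CPM with TFCP2L1, against 2.83 and 3.11 CPM. Its TPM overlapped, at 2.02 and 2.50 with TFCP2L1, against 1.47 and 3.10, and 1 gene of this list rose, not 2, for TPM with limma. HAMP, hepcidin itself, had at most 0.076 CPM in any library.

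Of 8 tested genes of ferritin handling and iron chaperoning, 2 rose. PCBP2, a chaperone that hands iron to ferritin, measured 552 and 576 CPM with TFCP2L1, against 420.1 and 415 CPM in the empty group (log2 fold change 0.43, SE 0.05, edgeR adjusted p = 1.44e-05). TAX1BP1, which takes part in NCOA4-dependent ferritin turnover, measured 158 and 164 CPM, against 130.0 and 123 CPM. With edgeR 0 genes of this list fell at the adjusted threshold and 1, GLRX3, at an unadjusted p under 0.05, and 0 fell with DESeq2. The count of falls was 1 in edgeR fits with upper quartile factors or a filter of 1 CPM, and 3 without overexpression replicate 2. PCBP1, the related chaperone, did not pass, at 254 and 276 CPM against 274 and 284 CPM.

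Among genes that control the regulatory proteins or carry an iron-responsive element of their own, 4 of 8 tested rose and 1 fell. FBXL5 and SKP1, parts of the ligase that degrades the IREB2 protein in iron-replete cells, rose by log2 fold changes of 0.30 and 0.24 (edgeR adjusted p = 0.00437 and 0.0079). CUL1, the scaffold of the same ligase, did not pass, at 101 and 105 CPM with TFCP2L1, against 102 and 104 CPM in the empty group. CDC42BPA, a kinase, rose by a log2 fold change of 0.30. EPAS1, the hypoxia factor HIF-2 alpha, measured 18.2 and 15.3 CPM with TFCP2L1, against 27.4 and 26.6 CPM in the empty group. The count of rises was 2 without empty replicate 2 and 2 for TPM with limma.

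Other genes of heme breakdown and transport went both ways, with 4 of 11 tested higher and 3 lower. Both genes named as biliverdin reductases rose. BLVRB measured 37.6 and 45.0 CPM in the overexpressing libraries, against 19.2 and 19.8 CPM in the empty ones (log2 fold change 1.09, SE 0.10, edgeR adjusted p = 7.31e-07). BLVRA measured 30.3 and 39.4 CPM with TFCP2L1, against 22.7 and 23.1 CPM (log2 fold change 0.61, SE 0.12, edgeR adjusted p = 0.000667). HMOX2, the constitutive heme oxygenase, was lower, at 38.7 and 43.5 CPM, against 57.6 and 58.4 CPM. SLC48A1, which brings heme out of the lysosome, and PGRMC2, a heme-binding membrane protein, rose by log2 fold changes of 0.45 and 0.53, while PGRMC1 and the heme and folate carrier SLC46A1 fell by 0.46 and 0.45 on the log2 scale. The TPM of SLC48A1 overlapped, at 11.1 and 11.4 with TFCP2L1, against 12.02 and 8.58, and 3 genes of this list rose for TPM with limma.

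In heme synthesis 6 of 12 tested genes rose and 1 fell. CPOX, coproporphyrinogen oxidase, measured 297 and 291 CPM with TFCP2L1, against 122 and 121 CPM in the empty group, a log2 fold change of 1.27 (SE 0.06, edgeR adjusted p = 3.31e-10). FECH, which inserts iron into the ring, measured 33.3 and 36.8 CPM, against 26.2 and 23.8 CPM. ALAS1, the first enzyme of the pathway outside erythroid cells, measured 117 and 121 CPM, against 101 and 105 CPM. The transporter ABCB6 had a log2 fold change of 0.38, and ABCB10, the gene that fell, one of -0.35. The count of rises was 2 without empty replicate 1, 3 without empty replicate 2 and 2 for TPM with limma, where ABCB10 was not called lower.

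In mitochondrial iron and iron-sulfur cluster assembly 9 of 24 tested genes rose and 5 fell. SLC25A37, mitoferrin 1, which carries iron into the mitochondrion, measured 59.7 and 53.3 CPM with TFCP2L1, against 108 and 102 CPM in the empty group (log2 fold change -0.89, SE 0.07, edgeR adjusted p = 2.27e-07). The cysteine desulfurase NFS1 and the ferredoxins FDX1 and FDX2 also fell, by 0.48, 0.36 and 0.35 on the log2 scale, and the count of falls was 3 with DESeq2 and with TPM. ABCB8, a mitochondrial transporter, measured 45.0 and 45.4 CPM with TFCP2L1, against 21.95 and 21.6 CPM, and the assembly factor ISCA2 rose by a log2 fold change of 0.60. In the cytosolic assembly machinery 4 of 11 fell, CIAPIN1, CIAO3, NUBP1 and LTO1, with log2 fold changes of -0.41, -0.49, -0.39 and -0.38. CIAO2A, reported to stabilise the ACO1 protein, was the gene that rose, at 76.1 and 76.3 CPM with TFCP2L1, against 50.3 and 51.9 CPM, and 2 genes rose without overexpression replicate 2.

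Transcription factors known to act on HMOX1 or ferritin genes were split, with 3 of 11 tested higher and 4 lower. NFE2L2, the oxidant-responsive activator NRF2, measured 108 and 109 CPM with TFCP2L1, against 54.5 and 63.5 CPM in the empty group (log2 fold change 0.88, SE 0.08, edgeR adjusted p = 3.96e-07). BACH1, the heme-sensing repressor of HMOX1, measured 21.6 and 19.7 CPM, against 29.1 and 27.5 CPM (log2 fold change -0.46, SE 0.09, edgeR adjusted p = 0.00118). NFE2L1 and MAFF were the other 2 that rose, at log2 fold changes of 0.27 and 0.71. HIF1A, EPAS1 and MYC were the others that fell, at -0.59, -0.69 and -0.59. KEAP1, which marks NRF2 protein for degradation, did not pass the test, at 89.1 and 97.8 CPM against 96.7 and 93.8 CPM. Without empty replicate 1 the count of rises was 5.

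**Figure D5:**
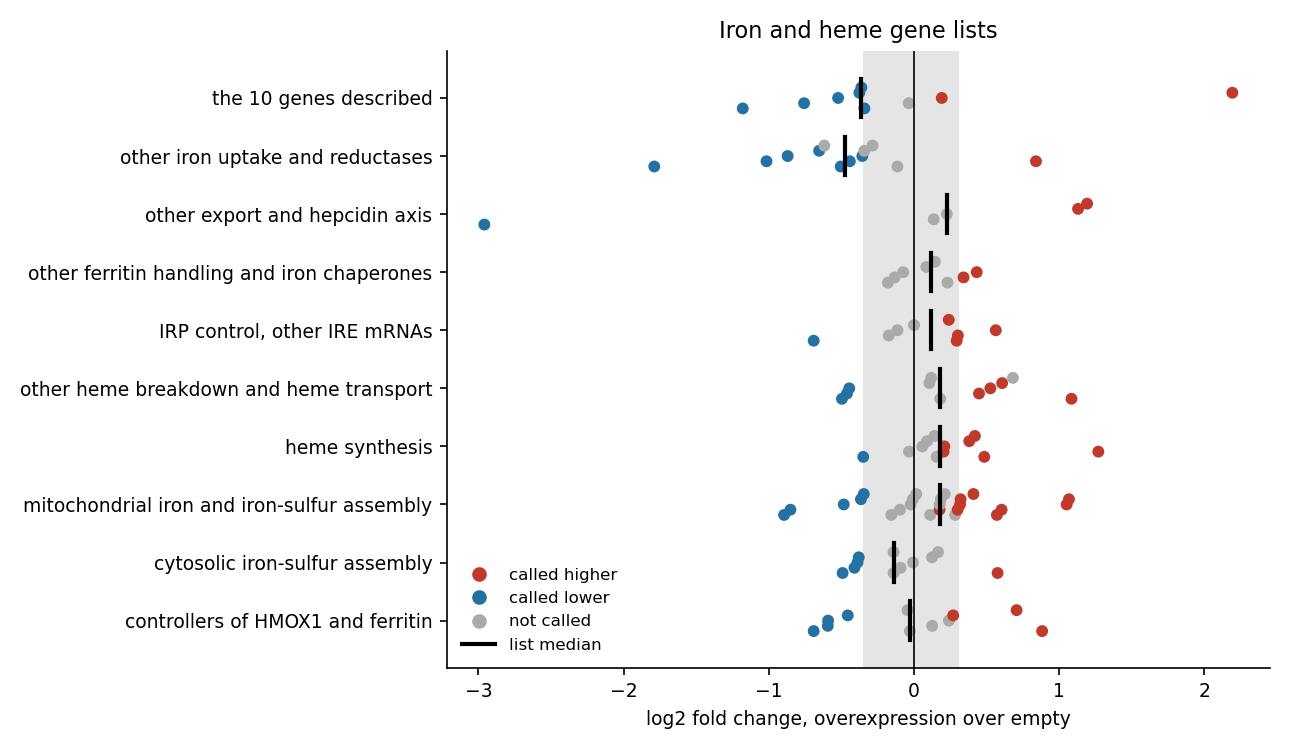
Log2 fold change, overexpression over empty, of each tested gene in the 10 genes described and the 9 other iron and heme lists; points are genes coloured by call, black bars are list medians and the grey band holds the middle 50% of all tested genes. The uptake and reductase list has its median at -0.47 (-0.25 for TPM with limma, not drawn), and heme synthesis has 6 genes higher and 1 lower.

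Marker genes of other cells rich in iron or heme proteins were read beside these values. The 7 macrophage markers summed to 88.2 and 84.5 TPM with TFCP2L1, against 44.0 and 48.1 TPM in the empty group, and none was at 0 in all libraries. Most of the sum was CD68, a lysosomal protein that many cell types make, at 86.2 and 88.2 CPM, against 36.1 and 38.1 CPM. PTPRC, CD163, CD14 and LYZ had at most 0.58 CPM in any library, and CSF1R was lower with TFCP2L1, at 8.55 and 8.84 CPM, against 15.26 and 16.9997 CPM. Of the 7 markers 4 were tested, and 1, CD68, rose while 2 fell. Over all tested genes, 23.5% rose and 23.9% fell. The part of CD68-expressing cells in the HMOX1 difference was not tested. The 6 erythroid markers summed to at most 1.28 TPM in any library, with ALAS2 at 0, and the 5 hepatocyte markers to at most 0.11 TPM, with ALB, APOA1 and TTR at 0.

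The start regions of the genes were searched on both strands for 3 motifs, in RefSeq promoters of GRCh38.p14 reaching from 250 bases before to 50 bases after each start. Entries matched 7 of the 10 genes, with 9 promoters, and FTH1, HMOX1 and SLC39A14 had none. The antioxidant response element core TGACNNNGC stood in 1 of the 9, as it did in 13.3% of all 35116 promoters. That 1 was the NCOA4 promoter listed at base 46019950 of chromosome 10, while the NCOA4 promoter listed at base 46030574 held 0 sites. A pair of TFCP2L1 half-sites (CCNG, 6 bases, CCNG) stood in 3 of the 9, those of FTL, SLC40A1 and STEAP3, and in 39.4% of all promoters. The GC box GGGCGG stood in 7 of the 9 and in 45.0% of all promoters. These are matches of letters in a short window and show no binding.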

How the data were processed

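RNA-seq of Hs578T cells was analysed in 4 libraries, 2 with TFCP2L1 overexpression and 2 of the empty group, grouped by the treatment label; columns were matched by sample title. The authors deposited estimated counts per gene, not normalized, and TPM per library, per the file headers. The authors' deposited fold change (a ratio), log2 fold change, p-value and adjusted p are DESeq2 output by the workbook's name. Bowtie 0.12.2 stands in the submitters' processing notes, as does a mouse build, mm9, that does not go with human gene IDs; for the counts, the sources used here give no aligner, counter, strand setting or build.

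Estimated counts were rounded and tested over all genes with edgeR 4.0.16 in R 4.3.3 (TMM, filterByExpr with a minimum count of 10, robust glmQLFit and glmQLFTest, Benjamini-Hochberg adjusted p under 0.05). Fold changes are overexpression over empty. Standard errors are |log2 fold change| / sqrt(F), and 95% intervals use the fit's degrees of freedom. CPM use TMM-scaled library sizes. Libraries of a group differed by more than sampling noise (mean squared deviation per gene 6.28 times the counting variance for the overexpression pair and 3.40 for the empty pair) and were counted as separate replicates. Depth of 18960674 to 26355502 counts sets a floor of 0.114 to 0.158 CPM. Scripts were tested on simulated data. Positions and transcripts come from GENCODE 29 (GRCh38), matched by gene ID, which need not be the authors' annotation. Per gene, the transcript marked principal was used, the longest if several were.

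The 10 genes, the lists and the motifs were chosen with earlier results of these data known. Named genes of the other lists are up to 4 called genes by smallest p, with a minimum of 5 CPM where they were higher. Those making up a count of 5 or fewer are also named. ALAS1, SLC11A2, SLC39A8, CYBRD1, SLC22A17, TF, HAMP, PCBP1, CUL1 and KEAP1 were added after their values were seen. Values of 3 genes that these lists count are not reported here. Alternatives tried were RLE, upper quartile and total scaling, TMM with TFCP2L1 and the 10 most abundant genes left out, 2 other filters, DESeq2 1.42.0, limma-voom and limma on log2(TPM + 1) (limma 3.58.1), an adjusted p under 0.01, a log2 fold minimum of 1, summing pseudogene rows, and leaving out each library.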

Additional observations from a re-analysis of the deposited data

How the results depend on the processing

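The calls of FTH1, TFRC, ACO1, NCOA4, SLC39A14 and STEAP3 as lower and of HMOX1 as higher kept their direction and their side of the 0.05 threshold in all 13 refits (14 for FTH1, with pseudogene rows summed in), over which the log2 fold change ran from -1.25 to -1.09 for FTH1 and from 2.09 to 2.31 for HMOX1. With a log2 fold minimum of 1, 1 gene was called lower (FTH1) and 1 higher (HMOX1), and over all tested genes 1511 lower and 788 higher. IREB2 was not called, which left 1 gene higher, with upper quartile factors, with library totals only, with 1 CPM in 2 libraries, with DESeq2, with limma-voom, with limma on log2(TPM + 1) and at an adjusted p under 0.01. Leaving out 1 library in turn gave 1 to 2 genes higher and 6 lower in each case. With the TPM test 2493 of all tested genes were higher and 2646 lower, 5139 of 16544 in either direction, against 7856 in the main fit. DESeq2 called 5648, with 30249 genes entered. The share of 47.5% of all tested genes called in the main fit therefore depends on the method. FTL had a log2 fold change of 0.024 without overexpression replicate 1, against -0.04 with all libraries, and -0.083 without overexpression replicate 2, and was called in no setting; the cause was not tested. As a ratio of counts, FTH1 to FTL averaged 1.13 with TFCP2L1 and 2.49 in the empty group; leaving out a library gave TPM ratios of 0.797 to 0.860 with TFCP2L1 and 1.59 to 1.88 in the empty group. Scaling moved the median of all genes by at most 0.03 on the log2 scale. Under the alternatives 8 list medians moved by more than the spread between replicates and 109 did not, and 35 list counts moved by over 1.5 times and 235 did not. The median of the transcription factor list, -0.03, changed sign in 2 settings, without a filter and without overexpression replicate 1. No paired analysis was possible because the sample titles give the groups no shared replicate numbers.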
